A study of Mus musculus with 6 samples.

Results

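The IgG Fc receptor genes are described here in macrophages sorted from mouse tumours. They were chosen by symbol and number 6 of the 21760 gene symbols in the table: the activating receptors Fcgr1, Fcgr3 and Fcgr4, the inhibitory receptor Fcgr2b, the signalling chain Fcer1g, and the neonatal receptor Fcgrt. All 6 were in the table and all 6 passed the filter on low counts. Tumours of MC38, a mouse colon carcinoma line, had grown under the skin of C57BL6 mice for 16 days, and macrophages were isolated from them by flow cytometry without further treatment. The wild type (WT) group had 2 mice with wild type tumours; the labels write WTb and do not say what the b marks, so a batch or line that differs from the KO groups cannot be told apart from the genotype. The knockout (KO) groups had tumours lacking Xkr8, a scramblase that exposes phosphatidylserine on dying cells, and came from clone 1 (2 mice) and clone 2 (2 mice). The deletion was in the tumour and the macrophages came from the host, so Xkr8, at 6.05 to 6.9 CPM in WT against 4.14 to 6.97 CPM in KO libraries (CPM are reads of a gene scaled to a common library total), does not check the labels. Each KO group is a single tumour clone, so the deletion and other traits of a clone cannot be told apart. The sources used here do not give the age or sex of the mice or the markers of the sorting gate.

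Fc gamma receptors bind the constant part of IgG and let macrophages take up, kill or present what antibodies have coated. Fcgr1, Fcgr3 and Fcgr4 signal through the shared chain encoded by Fcer1g, whose tyrosine motif (ITAM) recruits the kinase Syk. Fcgr2b carries its own inhibitory motif (ITIM), which recruits the phosphatase encoded by Inpp5d and raises the threshold for activation. Interferon-gamma is known to induce Fcgr1 and Fcgr4. Fcgrt encodes FcRn, which is related to MHC class I, pairs with B2m and rescues IgG and albumin from lysosomes.

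On GRCm38 (GENCODE M21) Fcgr2b (chromosome 1, 170958617 to 170976547, minus strand), Fcgr4 (171018920 to 171029761, plus strand) and Fcgr3 (171051174 to 171064935, minus strand) lie side by side, and Fcer1g (171229572 to 171234365, minus strand) lies on the same chromosome. Fcgr1 lies on chromosome 3 (96282909 to 96293969, minus strand) and Fcgrt on chromosome 7 (45092990 to 45103851, minus strand). The bases before the start of Fcgr1 and Fcgr4, the activating receptors with the smallest p below, are shown because interferon-gamma is known to act on these promoters. They are RefSeq sequences of GRCm38.p6, 250 bases each, written 5′ to 3′ on the strand of the gene. Capitals mark matches on either strand to TTCNNNGAA (the GAS element, through which interferon-gamma acts), GAGGAA (the core bound by the myeloid factor PU.1) or TTTC and again TTTC with NN between (the core of the interferon-stimulated response element).
Fcgr1, chr3:96293970-96294219, minus strand: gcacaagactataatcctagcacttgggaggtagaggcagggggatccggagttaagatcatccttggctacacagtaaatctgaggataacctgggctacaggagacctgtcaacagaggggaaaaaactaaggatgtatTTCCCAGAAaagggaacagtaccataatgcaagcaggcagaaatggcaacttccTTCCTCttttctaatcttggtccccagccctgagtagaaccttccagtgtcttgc
Fcgr4, chr1:171018676-171018925, plus strand: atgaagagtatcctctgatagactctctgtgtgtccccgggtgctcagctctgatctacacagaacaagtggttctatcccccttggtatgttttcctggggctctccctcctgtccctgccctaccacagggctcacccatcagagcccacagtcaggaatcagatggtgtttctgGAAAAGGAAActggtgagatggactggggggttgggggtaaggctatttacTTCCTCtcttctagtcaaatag
In Fcgr1 the GAS match TTCCCAGAA ended 101 bases and the PU.1 core 50 bases before the start. In Fcgr4 the response element core ended 64 bases and the PU.1 core 17 bases before the start. No match overlapped another. Among 32851 promoter windows of that length, 7.02% held the GAS letters, 23.3% the PU.1 core and 2.98% the response element core. The PU.1 core was also found before both RefSeq starts of Fcgr3, and the windows of Fcgr2b, Fcer1g and Fcgrt held none of the 3 patterns. These are matches of letters and show no binding.

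The library totals ran from 20038047 to 40022755 estimated reads. WT mouse 2 stood apart: it had the lowest total, 24.6% of its reads were from the pre-ribosomal RNA Rn45s, against 1.46% to 7.12% in the others, and its correlations of log2 expression with the other libraries were 0.912 to 0.927, against 0.972 to 0.989 among the other 5. The fold changes of the 6 genes and of some pathway genes, and the range of the pathway list medians, are given below with and without it. Other pathway genes that it moves are given without such a value. Marker sums are given per WT library. The macrophage genes Adgre1 (528 to 966 CPM), Csf1r (1059 to 1633 CPM) and C1qa (1880 to 2906 CPM) were abundant in every library. Adgre1 did separate the groups, at 667 and 528 CPM in WT against 767 to 966 CPM in KO libraries (log2 fold change 0.57 ± 0.20, adjusted p = 0.324, edgeR), as did Lyz2, the lysozyme of myeloid cells (0.66 ± 0.24, adjusted p = 0.33, edgeR). Both values are near that of Fcgr3 below. Of the 14 macrophage genes 5 had a positive value, and their median was -0.11. Without WT mouse 2 these were 12 of 14 and 0.14. The sum over 14 macrophage genes ran from 14669 to 16670 CPM in the KO libraries, between the values of WT mouse 1 (14113 CPM) and WT mouse 2 (18527 CPM). In bulk RNA of this kind, fewer cells of a type and less RNA per cell cannot be told apart.

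Every activating receptor, Fcgr2b and Fcer1g stood higher in each of the 4 KO libraries than in both WT libraries, and Fcgr4 had the largest fold of the 6. None passed edgeR's quasi-likelihood test after Benjamini-Hochberg adjustment over 15560 genes (threshold 0.05). The count of 0 of 6 stands beside 0.135% of all genes called in that comparison. At an unadjusted p under 0.05 the count was 3 of 6 (Fcgr4, Fcgr1 and Fcgr2b), beside 13.6% of all genes in either direction and 6.25% with a higher value. DESeq2, run on the same filtered counts, called these 3 genes, with adjusted p of 1.25e-07, 0.000614 and 0.043. That tool called 499 genes in all, against 21 for edgeR. Levels that did not overlap and were higher in KO were found for 5 of 6 members and for 12.9% of all genes. All 6 log2 fold changes were positive, as were 50.2% of those of all genes. Their median was 0.74, against 0.00 over all genes tested.

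Fcgr4 encodes an activating receptor of intermediate affinity that myeloid cells carry. WT mouse 1 had 151 CPM and WT mouse 2 had 101 CPM. In clone 1 it was 417 and 324 CPM, and in clone 2 it was 490 and 465 CPM. The lowest KO library thus stood well above the higher WT library. The mean of the KO libraries was 424 ± 73.4 CPM (SD, n = 4) and that of the WT libraries 126 ± 35.5 CPM (SD, n = 2). The fold was 3.37, with a 95% interval of 2.19 to 5.18 and a log2 fold change of 1.75 ± 0.27 (SE). The adjusted p from edgeR was 0.0637, just above the threshold, and 49 genes had a smaller p. Of 4045 tested genes with a mean of at least 50 CPM, a level set after the values were seen, 12 had a larger log2 fold change. Without WT mouse 2 the log2 fold change was 1.47, and without WT mouse 1 it was 2.09. With no filter beyond 1 count Fcgr4 passed, with an adjusted p of 0.0208 from edgeR.

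Fcgr1 encodes the high-affinity receptor CD64, which binds IgG that is not in complexes. Its WT libraries were close to each other, at 267 and 284 CPM in WT mouse 1 and WT mouse 2. In clone 1 it stood at 483 and 444 CPM and in clone 2 at 461 and 457 CPM. The KO libraries therefore lay in a narrow band above both WT libraries. Its KO libraries averaged 461 ± 16.4 CPM (SD, n = 4) and its WT libraries 275 ± 11.9 CPM (SD, n = 2). The fold was 1.68 (95% interval 1.29 to 2.18) and the log2 fold change 0.74 ± 0.16 (SE), with an adjusted p of 0.154 from edgeR. The value hardly depended on which WT library was used. Dropping WT mouse 2 gave 0.76, and dropping WT mouse 1 instead gave 0.71. Such fits keep a lone WT library, so only their fold changes are given, here and for the genes below.

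Fcgr3 encodes the low-affinity activating receptor CD16, which NK cells also carry. WT mouse 1 had 474 CPM and WT mouse 2 had 249 CPM. The libraries of clone 1 had 515 and 498 CPM, and those of clone 2 had 589 and 591 CPM. WT mouse 1 thus stood close to clone 1, and WT mouse 2 far below all others. The log2 fold change stood at 0.60 ± 0.27 (SE), and edgeR's adjusted p was 0.377. With WT mouse 1 as the lone WT library the log2 fold change fell to 0.19. With WT mouse 2 in that place it rose to 1.15, so its size rests on WT mouse 2.

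The inhibitory receptor Fcgr2b stood at 342 CPM in WT mouse 1 and 245 CPM in WT mouse 2. It was at 486 and 430 CPM in clone 1 and at 515 and 570 CPM in clone 2. The groups did not overlap, and the 2 libraries of clone 2 were the highest. The mean of the KO libraries was 500.2 ± 58.2 CPM (SD, n = 4) and that of the WT libraries 293 ± 68.6 CPM (SD, n = 2). The fold was 1.7 (95% interval 1.2 to 2.42), which on the log2 scale is 0.77 ± 0.22 (SE), and edgeR's adjusted p was 0.265. Without WT mouse 2 the log2 fold change was 0.52, and without WT mouse 1 it was 1.04.

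Fcer1g, the chain on which the activating receptors depend for signalling and surface expression, divided the WT libraries most. It stood at 576 CPM in WT mouse 1 and 221 CPM in WT mouse 2. The KO libraries held 709 and 629 CPM in clone 1 and 652 and 681 CPM in clone 2. The log2 fold change of 0.75 ± 0.35 (SE) had an adjusted p of 0.388 from edgeR. It was 0.19 when WT mouse 2 was left out and stood at 1.61 without WT mouse 1. As with Fcgr3, most of its value came from WT mouse 2.

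Fcgrt, the neonatal receptor, did not separate the groups. It stood at 43.9 and 68.6 CPM in WT mouse 1 and WT mouse 2, at 84.1 and 63.4 CPM in clone 1, and at 88.2 and 45.2 CPM in clone 2. The lowest KO library lay between the WT libraries. The log2 fold change stood at 0.32 ± 0.31 (SE), and edgeR's adjusted p was 0.585. Removing WT mouse 2 raised the log2 fold change to 0.65, and removing WT mouse 1 lowered it to 0.05. It ran from 0.18 to 0.48 when single KO libraries were left out, so its size depends on several libraries. Its partner B2m, the light chain shared with MHC class I, stood at 2725 and 308 CPM in WT mouse 1 and WT mouse 2 and at 3873 to 4519 CPM in the KO libraries. The log2 fold change of B2m was 1.46 ± 0.72 (SE), with an adjusted p of 0.394 from edgeR. Against WT mouse 1 alone the value of B2m was 0.59, and against WT mouse 2 alone it was 3.77.

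**Figure D1:**
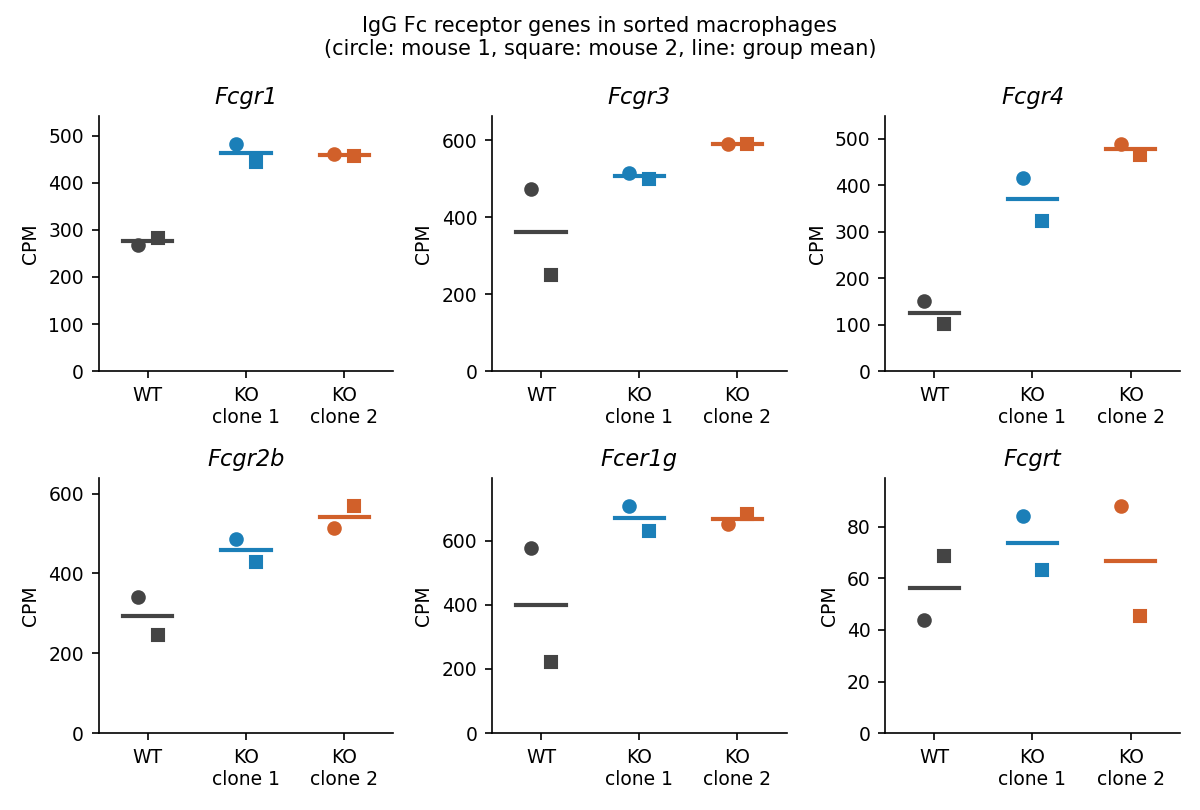
Level of each gene in CPM on TMM-scaled library sizes (vertical axes, from 0) in the 2 WT, 2 KO clone 1 and 2 KO clone 2 libraries. Circles are mouse 1, squares mouse 2 and lines group means. Fcgr4 stands at 101 and 151 CPM in WT against 324 to 490 CPM in KO libraries, while Fcgrt overlaps between the groups.

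**Figure D2:**
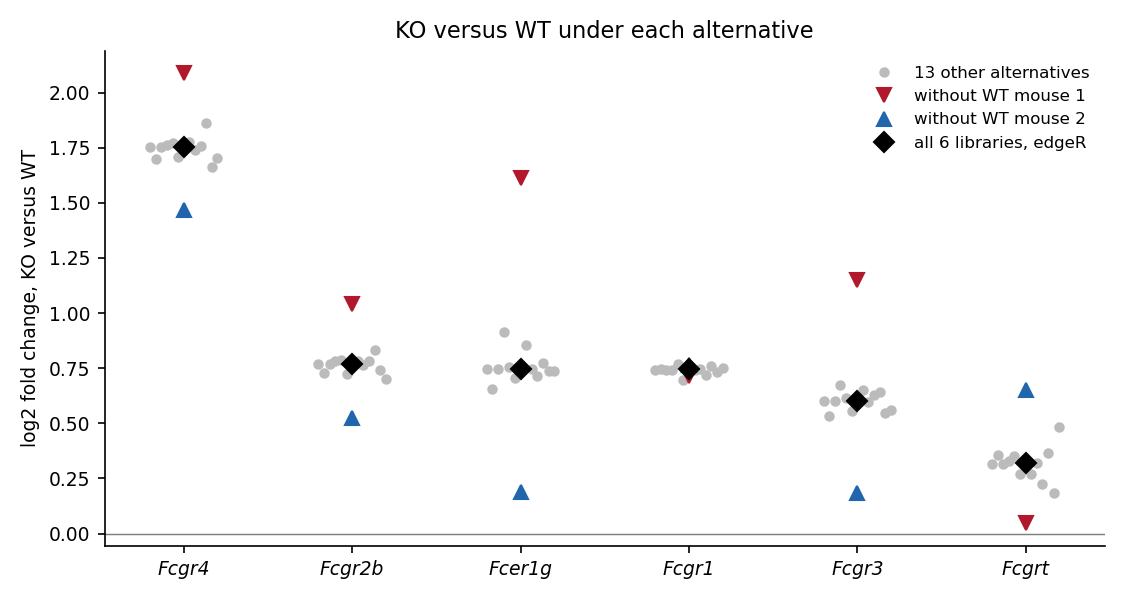
Log2 fold change of each gene in KO against WT (vertical axis) with all 6 libraries, without WT mouse 1, without WT mouse 2, and under 13 other alternatives. Fcgr1 and Fcgr4 keep most of their value whichever WT library is left out, while Fcer1g and Fcgr3 stand at 0.19 without WT mouse 2.

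Each clone was also set against WT, and the clones against each other, in a fit of 3 groups. Both clone contrasts use the same WT libraries and are given side by side as values. Fcgr4 stood at 1.56 ± 0.28 (log2 fold change ± SE) in clone 1 and 1.92 ± 0.28 in clone 2, with adjusted p of 0.222 and 0.119 from edgeR. Fcgr1 stood at 0.75 ± 0.21 and 0.74 ± 0.21, and Fcgr2b at 0.64 ± 0.25 and 0.89 ± 0.25. Fcgr3 stood at 0.49 ± 0.33 in clone 1 and 0.71 ± 0.33 in clone 2. Fcer1g had 0.75 ± 0.43 and 0.74 ± 0.43, and Fcgrt 0.39 ± 0.39 and 0.25 ± 0.39. No member passed in either clone, where edgeR called 0.00643% of all genes each time. At an unadjusted p under 0.05 there were 3 members in each clone (Fcgr4, Fcgr1 and Fcgr2b), all higher, beside 7.1% of all genes in clone 1 (4.25% higher) and 11.3% in clone 2 (5.12% higher). The levels of 5 members, all but Fcgrt, were above both WT libraries in each clone, as were 17.4% of all genes in clone 1 and 26.5% in clone 2. DESeq2 called Fcgr4 and Fcgr1 in clone 1, where it called 271 of 15560 genes. In clone 2 it called Fcgr4, Fcgr1 and Fcgr2b, among 465 genes in all. With no filter beyond 1 count edgeR called Fcgr4 in both clones (adjusted p = 0.0247 and 0.00486). Over the whole table that setting called 123 genes in clone 1 and 229 in clone 2, of 21525. In clone 2 Fcgr4 stood at 1.64 without WT mouse 2 and at 2.26 without WT mouse 1. Fcer1g there stood at 0.19 and 1.61.

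No difference between the clones was detected for any member by edgeR (0 of 6 called, 0% of all genes called, and 0 of 6 at an unadjusted p under 0.05, beside 3.23% of all genes). DESeq2 called 0 of 6 as well. The largest value was that of Fcgr4, higher in clone 2 by 0.37 ± 0.27 (log2, SE) with a 95% interval of -0.29 to 1.03. For Fcgr1 the value was -0.02, with an interval of -0.51 to 0.47. The intervals were wider for Fcgr2b (-0.35 to 0.84), Fcgr3 (-0.56 to 1), Fcer1g (-1.04 to 1.03) and Fcgrt (-1.07 to 0.78). Fcgr4, Fcgr2b and Fcgr3 were higher in both clone 2 libraries than in both clone 1 libraries, as were 21.8% of all genes.

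**Figure D3:**
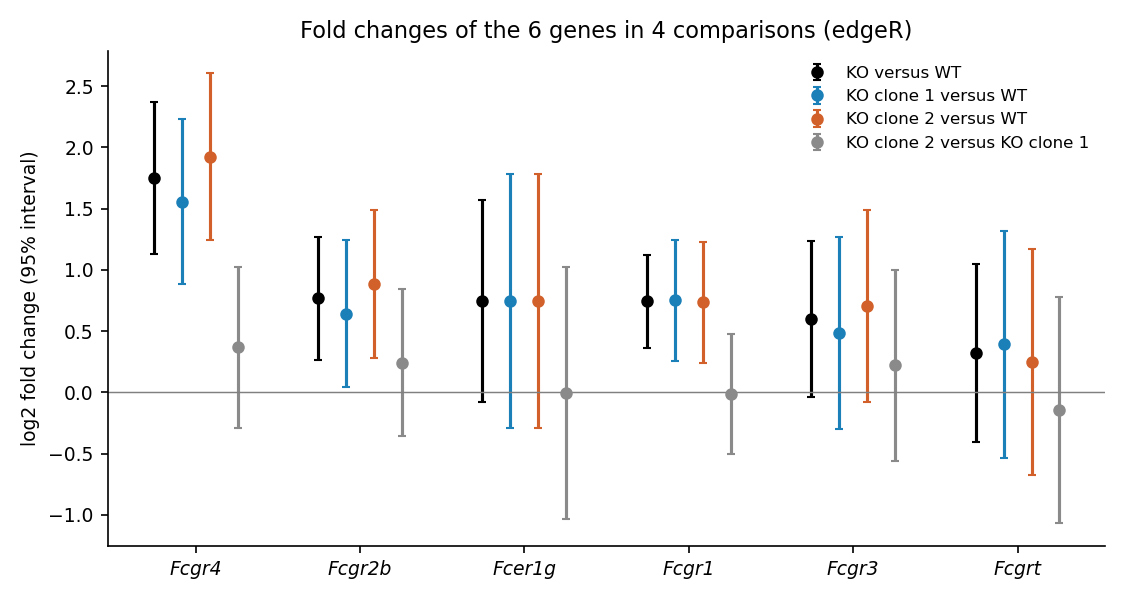
Log2 fold changes from edgeR (vertical axis, points) with 95% intervals (bars) for the 6 genes in 4 contrasts: KO and either clone against WT, and clone 2 relative to clone 1. The interval of Fcgr4 runs from 1.13 to 2.37 in KO against WT, and every interval between clones includes 0.

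Ratios of members within a library do not depend on how libraries are scaled. Levels were divided by the length of the annotated exons (0.748 kb for Fcer1g to 3.81 kb for Fcgr2b) before genes were compared. On the scale of CPM per kb, Fcgr4 over Fcgr2b was 1.34 and 1.25 in WT mouse 1 and WT mouse 2. In clone 1 the ratio was 2.6 and 2.29, and in clone 2 it was 2.89 and 2.48. All KO libraries were above both WT libraries, and the means were 2.56 ± 0.25 (SD, n = 4) and 1.29 ± 0.06 (SD, n = 2). The other activating receptors gave no such separation. Fcgr1 over Fcgr2b was 1.15 and 1.71 in WT and 1.18 to 1.52 in KO libraries. Fcgr3 over Fcgr2b was 3.92 and 2.88 in WT and 2.94 to 3.28 in KO libraries.

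The sum of the activating receptors over Fcgr2b, in CPM per kb, was 6.41 and 5.83 in WT and 6.59 to 7.44 in KO libraries. The groups did not overlap, but the lowest KO library was close to WT mouse 1. The means were 7.04 ± 0.35 (SD, n = 4) and 6.12 ± 0.41 (SD, n = 2). Within that sum Fcgr4 made up 20.9% and 21.4% in the WT libraries, 36.8% and 32.3% in clone 1 and 38.8% and 37.6% in clone 2. The shares in the WT libraries were close to each other although WT mouse 2 stood apart in its levels. No p is given for these ratios, since the genes were chosen with earlier results of these data known.

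**Figure D4:**
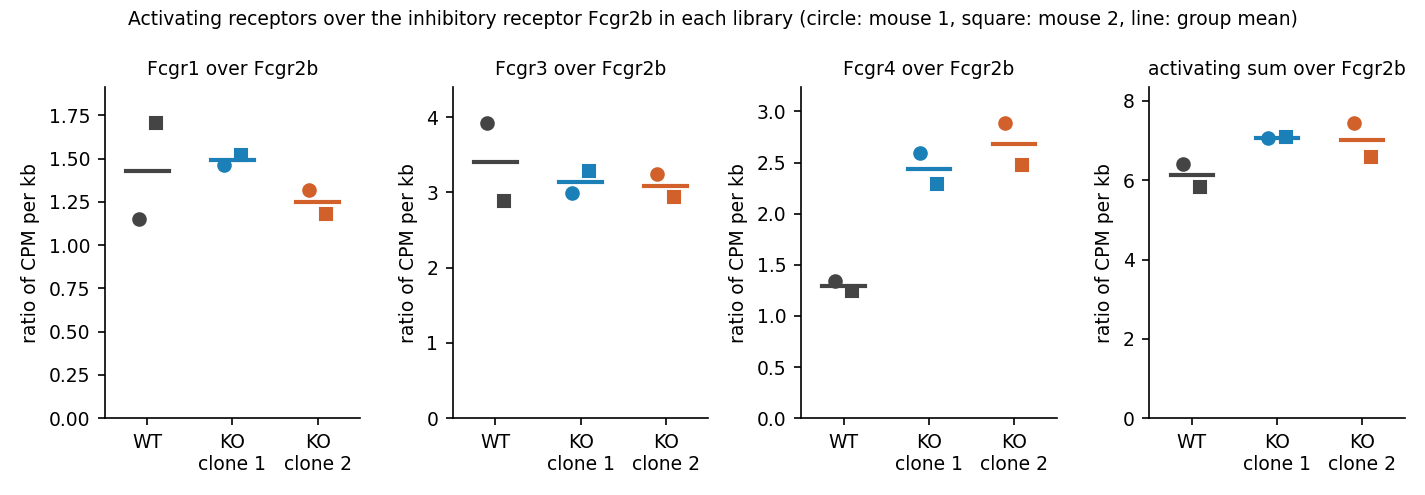
Ratio of Fcgr1, Fcgr3, Fcgr4 and their sum to Fcgr2b in each library, in CPM per kb (vertical axes, from 0). Circles are mouse 1, squares mouse 2 and lines group means. Fcgr4 over Fcgr2b is 1.25 and 1.34 in WT and 2.29 to 2.89 in KO libraries, while Fcgr1 and Fcgr3 over Fcgr2b overlap.

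The order of the levels in CPM per kb was headed by Fcer1g in every library, followed by Fcgr3, and ended with Fcgr2b and Fcgrt. In KO libraries the means were 893 for Fcer1g, 407 for Fcgr3, 338 for Fcgr4, 178 for Fcgr1, 131 for Fcgr2b and 39.4 for Fcgrt. The ranges of Fcgr3 and Fcgr4 overlapped there and those of the other neighbours did not. In WT libraries the means were 532 for Fcer1g, 268 for Fcgr3, 106 for Fcgr1, 100.1 for Fcgr4, 77 for Fcgr2b and 31.6 for Fcgrt. Fcgr1, Fcgr4 and Fcgr2b followed each other there with overlapping ranges, as did Fcer1g and Fcgr3. Fcgr4 stood above Fcgr1 in WT mouse 1 and in all KO libraries, and below it in WT mouse 2.

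Fcgr2b and Fcgr3 are related in sequence, so reads could be split between them. Of the 100-base stretches in annotated coding transcripts of Fcgr3, 2.7% also occurred in Fcgr2b, and 1.14% of those of Fcgr2b occurred in Fcgr3. Fcgr1, Fcgr4, Fcer1g and Fcgrt shared no such stretch with any other annotated gene. The stretches of Fcgr2b shared with any gene came to 6.49%. The genes that shared them included Cplx2, Gm47409, Rab3c and an antisense gene (Gm38204) that overlaps Fcgr2b. An annotated antisense gene (Gm45669) also overlaps Fcgrt, but the coding transcripts of Fcgrt shared no such stretch with it on either strand. Whether strand was used in counting is not stated, so reads from the stretches shared by Fcgr2b and Gm38204 cannot be told apart. How reads from the stretches shared with the other genes were divided is not stated either.

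The lists of other genes in the pathway showed no change that passed the test: edgeR called 0 genes in each of the 8 lists below, in both directions and in all 4 comparisons. Counts at an unadjusted p under 0.05 are to be read against 13.6% of all genes in KO against WT (6.25% higher), and counts of positive values against 50.2%. Without WT mouse 2 the medians of the 8 lists in KO against WT ran from -0.08 to 0.58. Without WT mouse 1 they ran from -0.23 to 0.89. The activating signalling list, with Syk, Src-family kinases and their substrates, had 15 of 24 members with a positive value in KO against WT. Its median was 0.04, beside 0.00 over all genes, and 1 member had an unadjusted p under 0.05. Without WT mouse 2, 22 of 24 were positive with a median of 0.22, and without WT mouse 1, 8 of 24 with a median of -0.04. The member under that p was Vav3, an exchange factor for Rac, at 0.59 ± 0.23 (log2 fold change, SE). Vav3 stood at 47.8 CPM in WT mouse 1 and 28.8 CPM in WT mouse 2, against 52.8 to 65.8 CPM in KO libraries. The phagocytosis effectors divided evenly with all 6 libraries, with 16 of 33 positive and a median of 0.00. Without WT mouse 2, 24 of 33 were positive with a median of 0.06, and without WT mouse 1, 16 of 33 with a median of -0.02. Among them Cybb, the catalytic subunit of the phagocyte oxidase, stood at 572 and 459 CPM in WT against 684 to 921 CPM in KO libraries (0.71 ± 0.21). Marcks, a substrate of protein kinase C, stood at 0.66 ± 0.21, and Bin1, a membrane-bending protein, at -0.59 ± 0.20. Bin1 was at 183 CPM in WT mouse 2 and 120 CPM in WT mouse 1, and its value was -0.28 without WT mouse 2.

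The inhibitory arm had 11 of 18 positive values and a median of 0.11, with 2 members on each side at an unadjusted p under 0.05. Pirb, an ITIM receptor of myeloid cells, stood at 105 and 110 CPM in WT against 149 to 212 CPM in KO libraries (0.77 ± 0.19). Lair1, a collagen-binding ITIM receptor, stood at 0.83 ± 0.28 and at 0.44 without WT mouse 2. The adaptor Dok3 had -0.71 ± 0.27 and the sialic acid receptor Cd33 had -0.53 ± 0.21. Dok3 was at 101 CPM in WT mouse 2 and at 42.8 to 49.1 CPM in the other 5 libraries, and its value without WT mouse 2 was -0.11.

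The list of receptors that pair with the Fcer1g chain also held its sister adaptors and Trem1, Trem2 and Clec7a, which signal without that chain. It had the highest median of the 8 lists, at 0.53, with 12 of 14 tested members positive and 6 at an unadjusted p under 0.05. Pira2, an activating paired immunoglobulin-like receptor, stood at 27.6 and 19.3 CPM in WT against 55.7 to 66.2 CPM in KO libraries. On the log2 scale the difference was 1.39 ± 0.21 (SE), edgeR's adjusted p was 0.0637, and its close family members make it uncertain as a single gene. Clec4d, a C-type lectin, stood at 27.6 and 27.9 CPM in WT against 48.2 to 79.5 CPM in KO libraries (1.06 ± 0.25). Ncr1 and Cd247, which NK and T cells carry, were part of this median. Ncr1 was at 0.132 and 0 CPM in WT against 0.469 to 2.31 CPM in KO libraries, and Cd247 at 0.439 and 1.17 CPM in WT against 2.84 to 5.09 CPM in KO libraries.

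The other Fc receptor genes had 5 of 10 tested members positive and a median of -0.10. Fcrls, an Fc receptor-like gene known from microglia and some tissue macrophages, had the opposite direction to Fcgr4 in KO against WT. It stood at 361 and 291 CPM in WT mouse 1 and WT mouse 2, at 157 and 119 CPM in clone 1, and at 198 and 205 CPM in clone 2. Every KO library was below both WT libraries, as were those of 10.7% of all genes. The log2 fold change stood at -0.94 ± 0.25 (SE), and edgeR's adjusted p was 0.237. The other genes of the list with smaller p were low, with Fcrl5 at 2.39 and 3.51 CPM in WT against 3.61 to 7.42 CPM in KO libraries, and Pigr at 5.57 CPM in WT mouse 2 and under 1 CPM elsewhere.

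The list of FcRn partners also held genes of peptide loading on MHC class I. It had 5 of 10 positive values and a median of -0.03. This median moved to 0.29 with WT mouse 2 left out and to -0.23 with WT mouse 1 left out. Of the 17 immunoglobulin and plasma cell genes listed, 4 could be tested, 2 with a positive value, and the IgG heavy chain genes are not analysed here. The list of known regulators of Fc gamma receptor genes had 14 of 22 positive, a median of 0.16 and 4 members at an unadjusted p under 0.05, all higher. Leaving out WT mouse 2 put the median at 0.26 with 20 of 22 positive. Leaving out WT mouse 1 put it at 0.06 with 13 of 22 positive. Among the 8 negative members with all 6 libraries were the myeloid factor Cebpa (-0.47 ± 0.28) and the complement receptor C5ar1 (-0.32 ± 0.30). Both were highest in WT mouse 2. Cebpa stood at 97.1 and 174 CPM in WT against 76.3 to 117 CPM in KO libraries. C5ar1 stood at 98.6 and 176 CPM in WT against 88.4 to 148 CPM in KO libraries. Jak2, a kinase of the interferon-gamma receptor, stood at 95.5 and 70.9 CPM in WT against 154 to 165 CPM in KO libraries (0.93 ± 0.18, adjusted p = 0.119, edgeR). Ifngr1, the ligand-binding chain of the interferon-gamma receptor, had 0.59 ± 0.23 and Ifnar2, a chain of the type I interferon receptor, 0.53 ± 0.19.

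**Figure D5:**
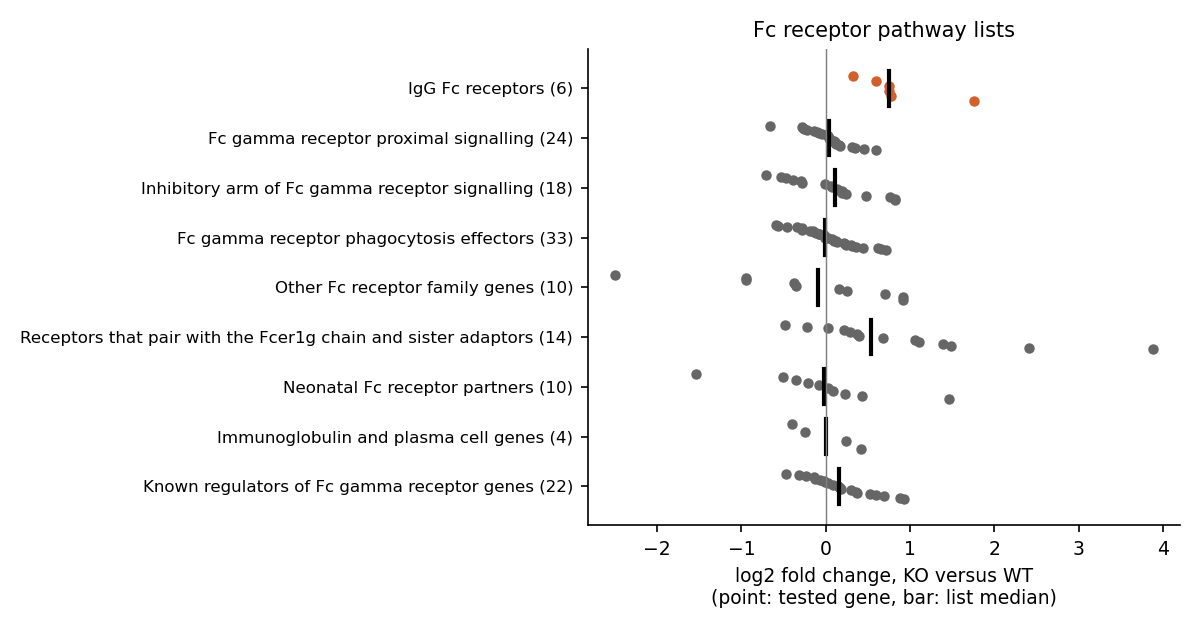
Log2 fold change in KO against WT (horizontal axis) of each tested gene (points) in the Fc receptor set and the 8 pathway lists, with the number of tested genes in brackets. Bars are list medians, which lie between -0.10 and 0.53 for the 8 lists and at 0.74 for the 6 receptors.

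Markers of other cell types, many of which carry Fc receptors, were measured in the same libraries. The 8 classical monocyte markers summed to 728 and 329 CPM in WT mouse 1 and WT mouse 2 and to 972 to 1248 CPM in KO libraries, and all 8 had a positive log2 fold change, with 1 called by edgeR (Ly6c2, 4.72 ± 0.27). The 11 NK cell markers summed to 18.1 and 24.4 CPM in WT and, in KO libraries, to 80.2 to 157 CPM. All 11 were positive, with 1 called (Klrk1, 2.63 ± 0.23). The 10 non-classical monocyte markers, cells in which Fcgr4 is known to be high, summed to 929 and 1189 CPM in WT. In KO libraries the sum was 846 to 1019 CPM and thus overlapped. Cx3cr1 was its largest part in each library (686 and 488 CPM in WT against 532 to 721 CPM in KO libraries). Of the 10, 6 were positive and 4 negative, Itgal (-1.27 ± 0.63) among the latter. Adgre4, among the former, was at 1.14 and 0 CPM in WT against 2.91 to 4.78 CPM in KO libraries (2.54 ± 0.84). The 11 neutrophil markers summed to 40.6 and 38.9 CPM in WT and, in KO libraries, to 56.6 to 75.3 CPM. Of the 11, 8 were under 1 CPM everywhere, S100a8, S100a9 and Ly6g among them. Most of that sum was Csf3r (26.3 and 25.9 CPM in WT against 44.8 to 61.6 CPM in KO libraries). Of 8 tested neutrophil markers 7 were positive. The other, Cxcr2, was at 11.9 and 12.9 CPM in WT against 6.08 to 8.87 CPM in KO libraries (-0.71 ± 0.21). Of the 10 B cell markers, Cd79a, Pax5 and Blk were under 1 CPM in every library. Cd79b, a chain of the B cell receptor, was at 4.68 and 3.1 CPM in WT against 7.76 to 12.3 CPM in KO libraries (1.37 ± 0.30), and the inhibitory lectin Cd22 at 4.79 and 5.43 CPM in WT against 7.37 to 9.69 CPM in KO libraries (0.80 ± 0.22). The sum of the B cell list was 24.3 and 15.3 CPM in WT against 21.5 to 41 CPM in KO libraries. Of the 9 mast cell markers 7 were under 1 CPM in every library. The 10 T cell markers in the table summed to 54.1 to 87.6 CPM in KO libraries, above WT mouse 1 (14.2 CPM) and WT mouse 2 (29 CPM). All 10 were positive and 2 were called by edgeR. The 9 fibroblast markers summed to 11986 CPM in WT mouse 2, to 4130 CPM in WT mouse 1 and, over the KO libraries, to 2407 to 3940 CPM. Most of that sum was Col3a1 (3634 and 11320 CPM in WT against 1837 to 3215 CPM in KO libraries). Of the 9, 5 were positive, and among these Thy1 (2.02 ± 0.44) and Dcn (1.06 ± 0.34) had the smallest p. The other 4 were negative, Col3a1 (-1.44 ± 0.43) and Col1a1 (-2.20 ± 0.89) among them. Col1a1 stood at 24.9 and 291 CPM in WT against 12.2 to 70.2 CPM in KO libraries. The 10 dendritic cell markers overlapped in their sum, at 68.5 and 127 CPM in WT against 92.6 to 108 CPM in KO libraries. Of the 10, 6 were positive. Among these, 4 had an unadjusted p under 0.05, Ccr7 (2.70 ± 0.38) and Cd209a (3.16 ± 0.93) included. The other 4 were negative, Batf3 (-0.95 ± 0.49) and Fscn1 (-0.24 ± 0.30) among them. The 9 endothelial markers summed to 26.1 and 35 CPM in WT and, in KO libraries, to 50.7 to 63.3 CPM. Most of that difference was Pecam1 (13 and 14.9 CPM in WT against 33.9 to 42.9 CPM in KO libraries). Of 7 tested endothelial markers 4 were positive and 3 negative, Vwf (-0.92 ± 0.46) among the latter. No marker of these 10 lists was at 0 in all libraries. The part of these other cells in the levels of the 6 receptor genes was not tested.

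The genes whose log2 CPM followed each member most closely over the 6 libraries were taken from 10257 tested genes with a mean of at least 5 CPM. With 6 points, of which WT mouse 2 stood apart, these correlations describe the libraries and carry no p. Closest to Fcgr1 were Clec12a, Pecam1, Slfn1, Irf7 and Ly6c2 (Pearson's r 0.992 to 0.997). Irf7 stood at 174 to 209 CPM in WT against 487 to 654 CPM in KO libraries. Closest to Fcgr4 were Mgst1, Plekhf2, H2-T22, Trim30d and Limd2 (0.995 to 0.996), and closest to Fcgr2b were Gpr107, Klra2, Riok3, Nlrp1a and Sppl2a (0.991 to 0.996). The genes closest to Fcgr3 (Dr1, Zfp53, Rab10, Car13 and Rab32, 0.998 to 0.999) and to Fcer1g (Rock2, Csnk1g3, Ptp4a1, Ctsc and Zfp758, 0.998 to 0.999) had WT mouse 2 lowest. Fcgrt had looser matches, led by Ptprm (0.962). Among the members, Fcgr4 and Fcgr2b had r = 0.978 and Fcgr3 and Fcer1g r = 0.974, while Fcgrt had 0.441 or less with every other member.

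The genes around the receptor cluster on chromosome 1 were measured to see whether the whole region differed. Of 12 tested neighbours nearest to Fcgr2b, Fcgr4 and Fcgr3, 6 had a positive log2 fold change in KO against WT, and their median was 0.04. None had an unadjusted p under 0.05, and their adjusted p from edgeR ran from 0.445 to 0.85. Among the abundant ones, Sdhc, a subunit of succinate dehydrogenase, stood at -0.19 ± 0.19 and the stress sensor Atf6 at 0.25 ± 0.18.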

How the data were processed

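Per the labels' protocols, TruSeq libraries were made from RNA of sorted macrophages depleted of ribosomal RNA. For each symbol the authors deposited an estimated count, a whole number with no scaling between libraries. The submitters' processing notes list Salmon 0.7.2 and mm10. The sources used here do not give the transcript set, filters or strand setting. The labels give separate mice, and p-values measure the spread between them. Of 21760 symbols 93.9% matched GENCODE M21 (GRCm38), which gave positions and exon lengths.

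Counts were filtered with filterByExpr (edgeR 4.0.16, R 4.3.3, minimum count 10, minimum total 15), scaled by TMM and tested with edgeR's quasi-likelihood F test, with Benjamini-Hochberg adjustment over all 15560 genes. KO against WT used 2 genotype levels, with the 4 KO libraries as replicates although they come from 2 clones, and the other contrasts 3 groups. CPM are on TMM-scaled library sizes. Intervals are log2 fold change ± a t quantile times its SE, which is its absolute value over the square root of F. Both fits were tested on simulated counts. The members and lists were chosen with earlier results of these data known. Named genes are all members, up to 4 per list and direction by smallest p, the 5 closest in pattern to each member and the nearest 12 neighbours. A few genes that this rule would name are not reported here. Csf1r, C1qa and the markers named as low fall outside that rule, as the motifs do, and were chosen after values were seen. The identity of the proteins was planned and is not reported. Alternatives were RLE factors, scaling to macrophage genes, DESeq2 1.42.0, limma-voom (limma 3.58.1), other filters, no Rn45s, a replicate block and leaving out each library. Leaving out WT libraries for the lists and their genes was chosen after seeing the data.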

Additional observations from a re-analysis of the deposited data

How the results depend on the processing

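Over the 15 alternatives for KO against WT and the 14 for each other contrast, 302 of 342 values of single members kept their direction and side of the threshold, 27 newly passed it, and 13 changed sign. The number of members called in KO against WT was 3 with DESeq2 and 1 with no filter beyond 1 count. For clone 1 these were 2 and 1, and for clone 2 they were 3 and 1. Leaving out each library in turn gave 0 to 5 members in each of these contrasts, with 5 only without WT mouse 1, where the lone WT library is assumed to vary like the other groups. Over the whole table DESeq2 called 499 genes in KO against WT, 271 in clone 1, 465 in clone 2 and 117 between clones, and no filter gave 111, 123, 229 and 53. The mean of the clones in 3 groups gave 1. The filter of 5 CPM gave 0 in each clone, and for clone 2 RLE factors gave 9 and leaving out Rn45s gave 8. Without each library in turn the counts ran from 1 to 6020 (KO), 0 to 5535 (clone 1), 0 to 6445 (clone 2) and 0 to 87 (between clones). In the same order, leaving out WT mouse 1 gave 6020, 5535, 6445 and 78, and leaving out WT mouse 2 gave 28, 58, 186 and 87. The cause of these shifts was not tested, and calls from fits with a lone WT library are not read as passed tests.

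The mouse numbers share no stated litter or day, and deviations of same-numbered mice correlated at -0.13, 0.05 and 0.20, so not every mouse followed its number. With the number as a replicate block, edgeR called 15 genes in KO against WT and 0 in each clone, and no member.

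The sign changes were of values near 0 or of Fcgrt. Between clones Fcgr1 was 0.0079 with RLE factors and 0.0079 with DESeq2, and ran from -0.075 to 0.047 when each library was left out. Fcer1g there was 0.019 with RLE factors, 0.019 with DESeq2 and 0.016 with the replicate block, and ran from -0.088 to 0.084. With a library left out, Fcgrt ran from -0.70 to 0.26 between clones and from -0.32 to 0.65 in clone 2 against WT. Without exon lengths the ratio of activating receptors to Fcgr2b was 2.6 in WT and 2.88 in KO libraries. With stretches of 50 bases 10.2% of Fcgr3 occurred in Fcgr2b. Every member had at least 997 estimated reads in each library, so counting error is small beside the spread between mice, and 2 WT libraries limit the precision.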
